A study of Zea mays with 6 samples.

Results

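In maize endosperm, 82 genes differed between the smk8-ref mutant and wild type (WT) in the mean share of their expression held by an annotated transcript. The mean summed level of each gene stayed within 2-fold. At 46 of these genes the share in 1 library lay at least 25 percentage points from both others of its genotype. The endosperm is the kernel tissue that stores starch and protein, and it was sampled 12 days after pollination. The series holds 3 WT and 3 smk8-ref libraries of total RNA. The mutant carries smk8-ref, by its name the reference allele at a maize locus named smk8. The labels give neither the gene affected nor the inbred background of either genotype, and they do not say whether the replicates came from separate ears or plants.

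The genes were chosen from the measured values themselves. For each locus, a gene as identified by the first part of the transcript identifier, the share of a transcript is its FPKM (fragments per kilobase of its length, relative to the fragments sequenced) divided by the sum over all transcripts of the locus. Of 36324 loci on numbered chromosomes, 11409 had at least 2 transcripts in the table, and 4002 of these also reached a sum of 5 FPKM in all 6 libraries. A locus was kept when the mean share of a transcript differed by at least 25 percentage points between the genotypes, the 3 libraries of one genotype all lay above the 3 of the other, and the locus mean differed by less than 2-fold. This kept 82 of the 4002 loci (2.05%), with 116 passing transcripts among 590 in all. Every difference in share or locus level between the genotypes given below for these loci is therefore a description of what chose them, and carries no test.

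One gene can give several messenger RNAs. Transcription can begin at more than one start site, introns can be spliced out, kept or joined at other sites, and the 3′ end can be cut and polyadenylated at more than one position. The resulting transcripts can encode different proteins, or differ in the untranslated parts that govern stability and translation, and some are degraded before they are translated. In plants, retained introns are a frequent form of alternative splicing. Short reads seldom span a whole transcript, so StringTie, named in the submitters' processing notes, assigns reads from shared exons to transcripts by a model. Levels of transcripts that share most of their sequence are estimates that can jump between near-alternatives from one library to the next.

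None of the 82 loci has a gene name in the table, and the RefSeq gene table used here pairs none of these identifiers with a symbol, so no function is given for them. The list of splicing, polyadenylation and RNA-decay names likewise matched none of the names in the table. FPKM summed to between 287260 and 321002 per library, and the read depth is unknown. Of the markers named in the table, the 4 endosperm genes FIE1, ESR1, ESR3 and CR4 summed to between 31.8 and 50.8 FPKM in WT and between 29.2 and 42.8 FPKM in smk8-ref. The 3 embryo and oil-body genes OBAP2A, OBAP2B and KN-1 summed to between 15.1 and 48.1 FPKM in WT and between 43.5 and 64.5 FPKM in smk8-ref, and none of these 7 genes was listed at 0 in any library. Both sums overlapped between the genotypes, but single markers did not. ESR3, expressed in endosperm cells around the embryo, stood at 3.22, 3.23 and 4.68 FPKM in WT and 0.308, 1.75 and 0.837 in smk8-ref. CR4, a receptor kinase gene of the aleurone, stood at 7.42, 7.24 and 8.93 FPKM in WT and 9.24, 10.4 and 9.78 in smk8-ref. OBAP2A and KN-1 were also higher in every smk8-ref library than in any WT library, while FIE1, ESR1 and OBAP2B overlapped. The part of these marker levels in the share differences was not tested. A share measured in whole tissue averages over cell types. Another mix of cells, or less RNA from some of them, cannot be told apart from another choice of transcript within a cell.

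The transcript that passed with the largest difference, here called the lead transcript, took a larger share in smk8-ref at 39 loci (0.975% of the 4002) and a smaller share at 43 (1.07%). Differences ran from 25.04 to 79.9 points, with a median of 33.3. At 34 loci a second transcript passed in the opposite direction, and at 48 only the lead passed. The partner, the transcript of the same locus that moved most the other way, took up a median of 71.7% of the lead's difference. It took at least 80% at 35 loci and under 50% at 20, where the remainder was spread over several transcripts. Over the 4002 loci the median was 82.0%, with at least 80% at 2113 (52.8%) and under 50% at 435 (10.9%). The most abundant transcript by genotype mean was not the same one in smk8-ref and WT at 50 of the 82 loci, against 440 of the 4002 (11%). At only 5 loci was a single transcript on top in all 3 WT libraries and a single other one in all 3 smk8-ref libraries, against 17 of the 4002 loci (0.425%).

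**Figure D1:**
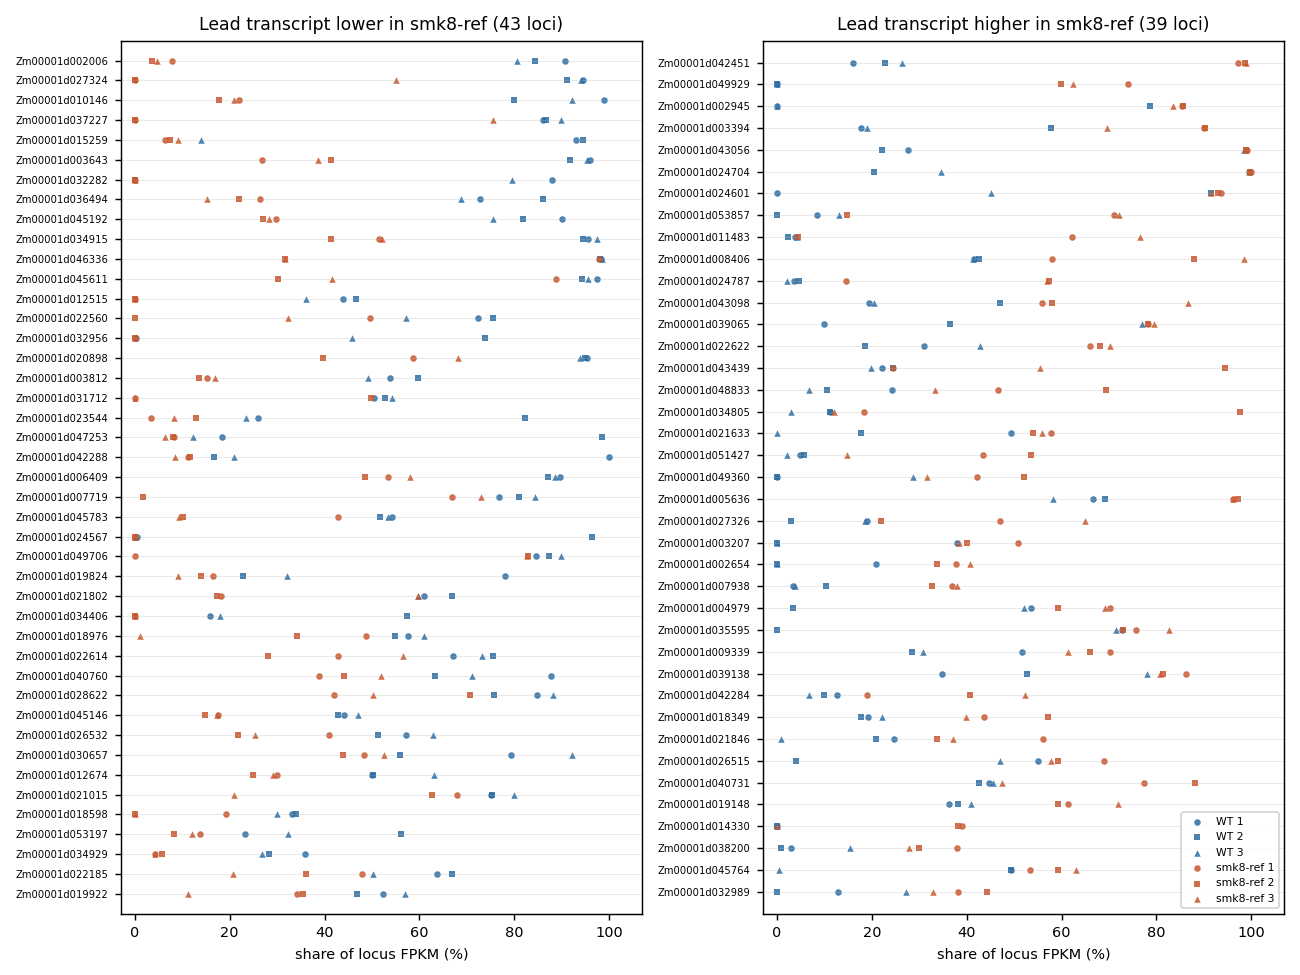
Share of locus FPKM (x axis, %) held by the lead transcript in each library, 1 row per locus, for the 43 loci where it is lower in smk8-ref (left) and the 39 where it is higher (right). Blue symbols are WT and orange symbols smk8-ref; rows at the top separate by up to 79.9 points between means, while many rows hold 1 library of a genotype far from its other 2.

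**Figure D2:**
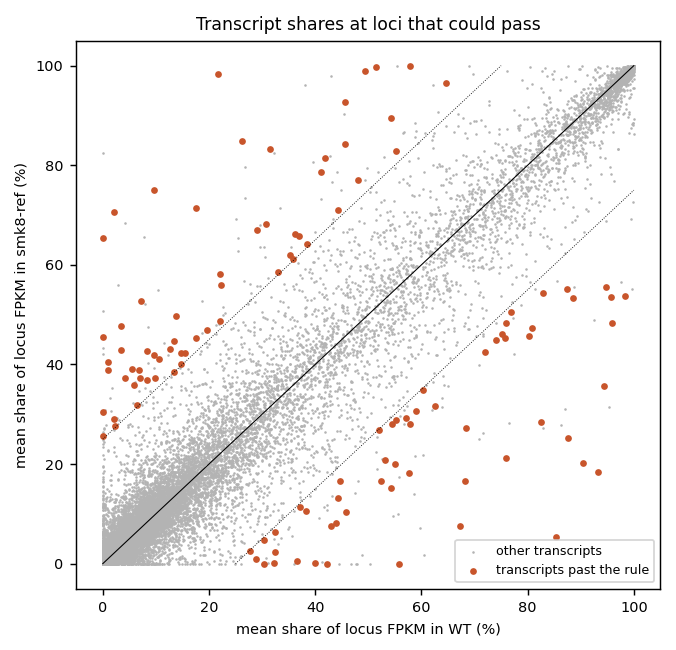
Mean share in WT (x axis, %) against mean share in smk8-ref (y axis, %) for each transcript of the 4002 loci, with dotted lines 25 points either side of equality. Orange points are the 116 transcripts past the rule; grey points beyond the dotted lines overlapped between genotypes or belonged to a locus past the 2-fold limit.

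The clearest loci were those whose genotypes lay far apart in every library. At 15 loci, singled out after their values were seen, the nearest WT and smk8-ref libraries were still at least 25 points apart. Such gaps were found at 18 of the 4002 loci (0.45%). The lead was lower in smk8-ref at 12 of the 15 and higher at 3. Loci past the 2-fold limit also had such gaps, namely Zm00001d018233, Zm00001d046579 and Zm00001d002715. Each had a higher share in smk8-ref, so the balance of directions depends on that limit. At 13 of the 15 the FPKM of lead and partner also stood in opposite directions without overlap. Over all 82 loci this was so at 28, against 141 of the 4002 (3.52%).

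The widest separation was at Zm00001d002006 (chromosome 2, 4277523 to 4284475, minus strand), which has 7 transcripts. Transcript T001 held 90.8%, 84.4% and 80.5% of the locus in WT replicates 1 to 3 and 7.78%, 3.56% and 4.71% in smk8-ref replicates 1 to 3. The genotypes were 72.7 points apart at their nearest libraries. Its level was 15.7, 18.1 and 17.6 FPKM in WT and 2.36, 0.758 and 1.12 FPKM in smk8-ref. In its place 3 transcripts shared the locus almost evenly in smk8-ref, T010 at a mean of 27.6%, T011 at 29.5% and T013 at 24.8%, which had held 2.28%, 7.59% and 3.61% in WT. T010 begins 1555 bases downstream of T001 and ends 19 bases upstream of it. The sum over the locus was 20.2 ± 2.51 FPKM (SD, n = 3) for WT and 25.1 ± 4.67 for smk8-ref.

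Zm00001d042451 (chromosome 3, 168249742 to 168260524) showed the reverse, a mixed pool in WT and a single transcript in smk8-ref. Transcript T002 held 16.0%, 22.7% and 26.4% in WT and 97.2%, 98.7% and 98.8% in smk8-ref. What filled the rest in WT was not steady. T006 held 71.7%, 7.65% and 30.4% in WT replicates 1 to 3, and T005 held 0, 49.6% and 42.4%. All 3 smk8-ref libraries thus agreed on one transcript, while the WT libraries agreed on the low share of T002 but not on its alternatives.

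At Zm00001d049929 (chromosome 4, 53637973 to 53643335) transcript T009 was listed at 0 in all 3 WT libraries and held 74.0%, 59.9% and 62.3% in smk8-ref, with 6.42, 7.42 and 10.1 FPKM. In WT the locus was divided among T005 at a mean of 30.5%, T008 at 21.9%, T001 at 16.3% and T004 at 14.4%. A listing of 0 can be a failed assignment of reads by the model and is not read as absence. The lead transcript was listed at 0 in all libraries of WT at 1 of the 82 loci and in all libraries of smk8-ref at 3. For the transcript of largest difference at the 4002 loci this was so at 29 (0.725%) and 32 (0.80%).

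Several loci showed a simple exchange between a pair of transcripts. At Zm00001d010146 (chromosome 8) T002 held 99.0%, 79.9% and 92.3% in WT and 21.9%, 17.7% and 20.9% in smk8-ref. Its partner T009 held 0.978%, 20.1% and 7.72% in WT and 68.5%, 80.5% and 76.2% in smk8-ref, and ends 528 bases upstream of T002. At Zm00001d045192 (chromosome 9) T022 held 90.0%, 81.8% and 75.6% in WT and 29.8%, 27.1% and 28.3% in smk8-ref, and T017 held 70.1%, 72.7% and 71.6% in smk8-ref. T022 and T017 have the same genomic start and end in the table, so they differ inside the locus. This was one of the 2 loci among the 82 where lead and partner shared both ends.

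Another pair of simple exchanges involved transcripts with a common 3′ end. At Zm00001d012515 (chromosome 8), one of 2 members with just 2 transcripts, T001 held 43.9%, 46.7% and 36.1% in WT and was listed at 0 in all 3 smk8-ref libraries, where T002 held all of the locus. T002 begins 38 bases upstream of T001. At Zm00001d003812 (chromosome 2) T006 held 53.8%, 59.8% and 49.3% in WT and 15.2%, 13.5% and 16.9% in smk8-ref, and T002, which begins 807 bases upstream, stood at means of 45.6% and 84.3%. In both loci the transcript that begins further upstream held the larger share in smk8-ref in every library.

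At Zm00001d034915 and Zm00001d006409 the partner was listed at 0 in every WT library. T002 of Zm00001d034915 (chromosome 1) held 95.5%, 94.5% and 97.4% in WT and 51.6%, 41.5% and 52.1% in smk8-ref, where T004 held 41.5%, 52.5% and 42.5%. T002 of Zm00001d006409 (chromosome 2) held 89.7%, 87.0% and 88.7% in WT and 53.4%, 48.6% and 58.0% in smk8-ref, where T001 held 36.6%, 32.2% and 22.4%. In each case the WT transcript remained the most abundant one by its mean in smk8-ref. The locus means of Zm00001d006409 were 7.37 ± 0.168 FPKM in WT and 7.42 ± 0.502 in smk8-ref.

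Zm00001d036494 (chromosome 6) had a single main transcript in WT and 3 of similar order in smk8-ref. T001 held 72.9%, 86.0% and 68.8% in WT and 26.4%, 22.0% and 15.2% in smk8-ref. There T004 held a mean of 39.0% and T005 a mean of 36.0%, against 5.51% and 18.6% in WT. Zm00001d045146 (chromosome 9) was one of 4 members whose lead share ranged over less than 10 points within each genotype. T002 held 44.1%, 42.8% and 47.1% in WT and 17.5%, 14.8% and 17.4% in smk8-ref, at 21.2, 21.3 and 24.1 FPKM in WT and 6.10, 5.52 and 6.50 FPKM in smk8-ref. Its partner T005 took the larger share in smk8-ref, 59.3%, 64.1% and 65.0% against 36.7%, 48.1% and 34.8%, yet its FPKM values of 20.7, 23.8 and 24.3 overlapped the 17.7, 24.0 and 17.9 of WT. The larger share of T005 thus came with a lower level of T002 and no clear difference in the level of T005 itself.

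**Figure D3:**
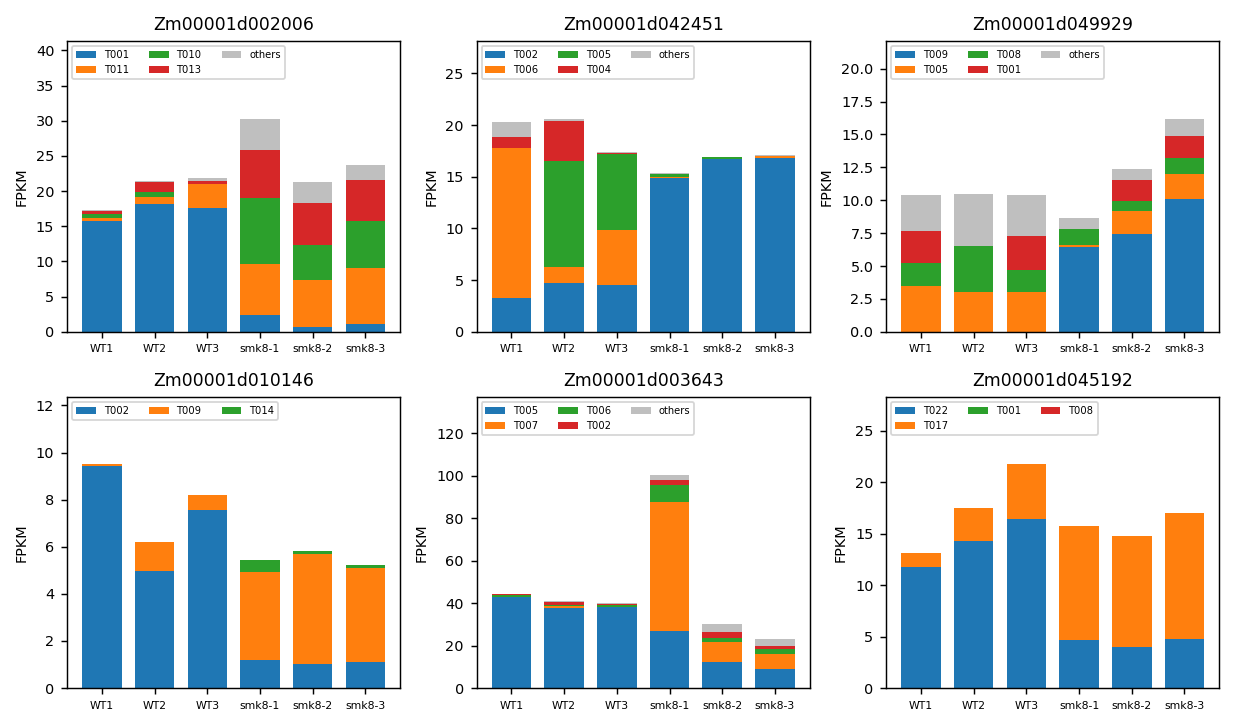
FPKM (y axis) of the 4 most abundant transcripts, and of the others summed, in each of the 6 libraries for the 6 loci with the widest gap between genotypes; bars start at 0 and colours mark transcripts within a locus. At Zm00001d002006 the blue T001 stands at 15.7 to 18.1 FPKM in WT and at 0.758 to 2.36 in smk8-ref, and at Zm00001d003643 smk8-ref replicate 1 is far above the other libraries.

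At a pair of the wide-gap loci 1 smk8-ref library differed from its companions, in share or in level. At Zm00001d027324 (chromosome 1, 2959502 to 2972168) T003 held 94.6%, 91.1% and 94.0% in WT, was listed at 0 in smk8-ref replicates 1 and 2 and held 55.0% in replicate 3. T001 held 99.2% and 99.8% in smk8-ref replicates 1 and 2. At Zm00001d003643 (chromosome 2) T005 held 96.0%, 91.8% and 95.4% in WT and 26.9%, 41.3% and 38.7% in smk8-ref. T007, which begins 11278 bases downstream within the same locus, held 60.6%, 31.3% and 29.6% in smk8-ref and at most 2.15% in WT. T007 reached 60.8 FPKM in smk8-ref replicate 1 against 9.43 and 6.90 in replicates 2 and 3, so the locus mean there, 51.3 ± 42.7 FPKM, rests on that library.

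Among the 10 most abundant members, whose locus means over all libraries ran up to 199 FPKM, the separation was even over the libraries at some and carried by 1 or 2 libraries at others. Zm00001d005636 (chromosome 2) had steady shares. T003 held 66.6%, 69.2% and 58.3% in WT and 96.1%, 97.1% and 96.2% in smk8-ref, at 48.2, 45.1 and 27.0 FPKM in WT and 105, 118 and 125 in smk8-ref, while T001 stood at 21.9, 18.5 and 17.8 FPKM in WT and 3.13, 1.71 and 3.37 in smk8-ref. The locus differed by 1.96-fold, just inside the limit, and left the set when any of 3 single libraries was omitted. At Zm00001d020898 (chromosome 7) T003 held 95.4%, 95.0% and 93.8% in WT and 58.6%, 39.8% and 68.1% in smk8-ref. Its partner T010 held 26.3%, 37.9% and 22.7% in smk8-ref, and its mean in WT was 2.20%.

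At Zm00001d028622 (chromosome 1) T002 held 84.8%, 75.7% and 88.1% in WT and 42.0%, 70.6% and 50.3% in smk8-ref, so that smk8-ref replicate 2 lay 5.16 points below the nearest WT library. The locus sum was 52.2 ± 3.84 FPKM for WT and 52.7 ± 10.5 for smk8-ref. At Zm00001d019824 (chromosome 7) the lead T004 was set apart by WT replicate 1, at 78.2% against 22.8% and 32.0% in the other WT libraries and 16.5%, 13.9% and 9.05% in smk8-ref. Its partner T012 was steadier, at 6.61%, 8.82% and 9.66% in WT and 41.4%, 37.0% and 32.2% in smk8-ref. At Zm00001d002654 (chromosome 2) T024 held 37.6%, 33.7% and 40.7% in smk8-ref and 20.8%, 0.0058% and 0.0171% in WT, where replicate 1 stood alone.

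At the other abundant members 1 library lay far from both others of its genotype. At Zm00001d046336 (chromosome 9) T002 held 98.4%, 98.0% and 98.5% in WT. It held 97.9% in smk8-ref replicate 1 and 31.7% in both other smk8-ref libraries, so the groups were kept apart by 0.137 points. At Zm00001d047253 (chromosome 9) T002 held 98.4% in WT replicate 2 and 18.3% and 12.2% in the other WT libraries, against 8.23%, 7.95% and 6.37% in smk8-ref. At Zm00001d053857 (chromosome 4) T008 held 71.0% and 72.2% in smk8-ref replicates 1 and 3 but 14.8% in replicate 2, close to the 13.1% of WT replicate 3. At Zm00001d021802 (chromosome 7) T005 held 18.1% and 17.4% in smk8-ref replicates 1 and 2 but 59.7% in replicate 3, 0.118 points below the lowest WT library. At Zm00001d027326 (chromosome 1) T004 held 47.1%, 22.0% and 64.9% in smk8-ref and 18.9%, 2.90% and 18.5% in WT.

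Other members with at least 20 FPKM in both genotypes, chosen for a large difference, showed the same division. At Zm00001d024787 (chromosome 10) T001 held 3.59%, 4.69% and 2.01% in WT and 14.4%, 57.4% and 56.8% in smk8-ref. At Zm00001d043098 (chromosome 3) T001 held 19.5%, 47.0% and 20.4% in WT and 56.0%, 58.1% and 86.7% in smk8-ref. At Zm00001d037227 (chromosome 6) T006 held 86.1%, 86.6% and 89.9% in WT, was listed at 0 in smk8-ref replicates 1 and 2, and held 75.6% in replicate 3. The remaining 3 named under the same rule were each divided within a genotype. T005 of Zm00001d015259 held 93.1%, 94.6% and 13.9% in WT and 6.32%, 7.38% and 9.14% in smk8-ref. T013 of Zm00001d002945 held 78.6% in WT replicate 2, 0.0094% and 0.0072% in the other WT libraries, and 85.3%, 85.7% and 83.4% in smk8-ref. T024 of Zm00001d031712 held 50.4%, 52.8% and 54.2% in WT and 49.8% in smk8-ref replicate 2, and was listed at 0 in the other smk8-ref libraries.

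At less abundant loci with a moderate gap, each library still lay well on its own side. A gap of at least 10 points between the nearest libraries was found at 33 of the 82 loci, against 72 of the 4002 (1.80%). The loci in this paragraph and the next were picked after their values were seen. At Zm00001d034929 (chromosome 1) T019 held 35.9%, 28.2% and 26.8% in WT and 4.32%, 5.80% and 4.31% in smk8-ref. At Zm00001d007938 (chromosome 2) T016 held 3.36%, 10.4% and 3.75% in WT and 37.0%, 32.7% and 37.9% in smk8-ref, while T006 went the other way, from a mean of 27.7% to one of 2.46%. In both loci the smk8-ref libraries lay close together.

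At Zm00001d019148 (chromosome 7) T004 was already a leading transcript in WT, at 36.3%, 38.2% and 40.8%, and held 61.3%, 59.2% and 71.8% in smk8-ref. At Zm00001d018349 (chromosome 5) T005 held 19.2%, 17.7% and 22.2% in WT and 43.6%, 57.1% and 39.9% in smk8-ref, and T001, whose 5′ end lies 5159 bases away, stood at a mean of 23.6% in WT and 2.51% in smk8-ref. At Zm00001d008406 (chromosome 8) T003 held 41.5%, 42.6% and 41.3% in WT and 57.9%, 87.8% and 98.5% in smk8-ref, so that the WT libraries lay close together and the smk8-ref libraries far apart. At Zm00001d034406 (chromosome 1) it was the reverse, with T008 at 15.8%, 57.5% and 18.0% in WT and listed at 0 in all 3 smk8-ref libraries.

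Such division within a genotype was common. At 46 of the 82 loci 1 library held a lead share at least 25 points from both other libraries of its genotype, and the same held for the transcript of largest difference at 632 of the 4002 loci (15.8%). No single library accounted for these cases. The odd library was WT replicate 1 at 6 loci, WT replicate 2 at 12, WT replicate 3 at 6, smk8-ref replicate 1 at 6, smk8-ref replicate 2 at 8 and smk8-ref replicate 3 at 9, 1 locus having an odd library in both genotypes. Lead shares ranged over at least 25 points within WT at 27 loci and within smk8-ref at 29, and over less than 10 points in both genotypes at 4. For the transcript of largest difference at the 4002 loci this was so at 561 (14.0%), 498 (12.4%) and 1892 (47.3%). At 8 loci the groups were separated by less than 0.1 point, against 90 of the 4002 (2.25%). That is a difference far below the spread between replicates. At the least separated of the 8, T061 of Zm00001d014330, it was 0.0001 point. A call of non-overlap at these 8 is a matter of decimals.

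**Figure D4:**
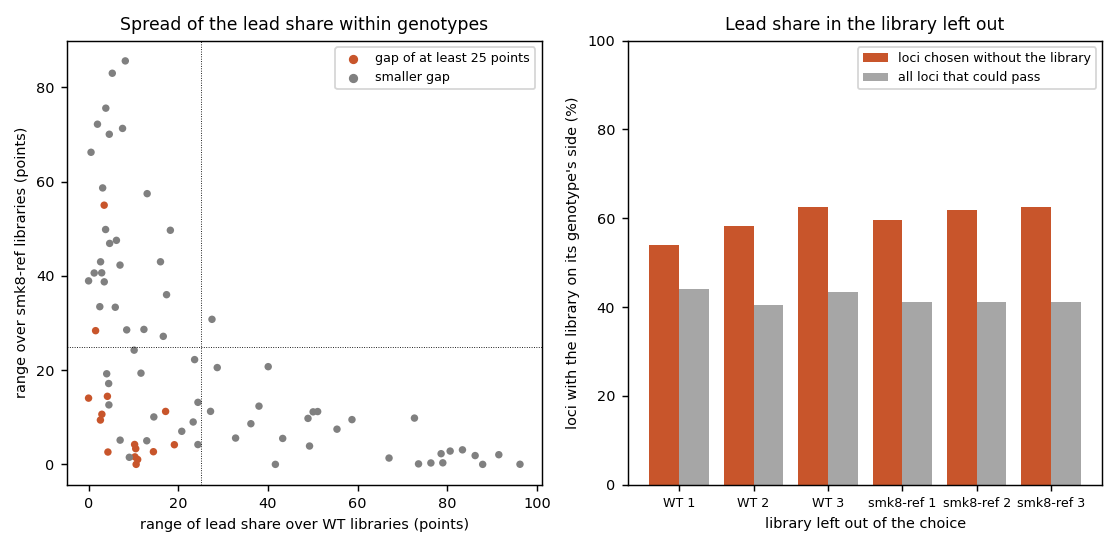
Left, range of the lead share over the 3 WT libraries (x axis, points) and over the 3 smk8-ref libraries (y axis, points) for the 82 loci, with the 15 of a gap of at least 25 points in orange; most of the others have a range of 25 points or more in one genotype. Right, for each library, the percentage of loci chosen without it at which it lay on its own genotype's side (orange, 54.1% to 62.6%) and the same for all 4002 loci (grey, 40.5% to 44.0%). Only the orange loci were required to be separated in the other libraries, so the bars are not like for like.

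Each library was also compared with the loci chosen without it, although the libraries of the opposite genotype that it is set against did take part in the choice. The rule was applied to the other 5 libraries of the 4002 loci, and the lead share in the omitted one was compared with the 3 libraries of the opposite genotype. Without WT replicate 1 the rule chose 148 loci, and WT replicate 1 lay beyond all 3 smk8-ref libraries on the WT side at 80 of them (54.1%). For WT replicate 2 this was so at 81 of 139 (58.3%) and for WT replicate 3 at 90 of 144 (62.5%). For smk8-ref replicates 1 to 3 it was so at 84 of 141 (59.6%), 70 of 113 (61.9%) and 77 of 123 (62.6%). For the transcript of largest difference at all 4002 loci, the corresponding values were between 40.5% and 44.0%. Those loci were not required to have the other 5 libraries separated by genotype. That requirement can by itself raise the percentage, so nothing is read from the excess at the chosen loci.

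Its lead share was closer to the mean of its own genotype than to that of the other at 43.2%, 49.6% and 49.3% of the chosen loci for WT replicates 1 to 3, against 53.2%, 48.0% and 51.9% of all 4002. For smk8-ref replicates 1 to 3 the values were 48.9%, 55.8% and 56.1%, against 53.0%, 53.8% and 54.5%. The 4002 include the chosen loci and were not required to be separated in the other 5 libraries. The means compared also took part in the choice, so nothing is read from these percentages either.

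The median difference was smaller in the omitted library, and the way the loci were chosen can by itself bring this about. They were kept for a large difference in the other 5 libraries, so nothing is read from the drop. Among loci chosen without WT replicate 1 the median difference was 36.2 points in the choosing libraries and 13.4 points between WT replicate 1 and the smk8-ref mean. The same medians were 33.1 and 15.5 points for WT replicate 2, 32.8 and 14.4 for WT replicate 3, 32.8 and 15.0 for smk8-ref replicate 1, 33.5 and 23.5 for smk8-ref replicate 2, and 35.7 and 21.5 for smk8-ref replicate 3. In the omitted library the difference was at least 25 points at 49 of 148, 56 of 139 and 52 of 144 chosen loci for WT replicates 1 to 3. For smk8-ref replicates 1 to 3 it was so at 53 of 141, 51 of 113 and 54 of 123. The same count was not made over the 4002 loci, so these counts are not read as many or few. Of the 82 loci, 34 were chosen in all 6 sets of 5 libraries, 27 in 5 sets, 15 in 4 and 6 in 3. Leaving out a library cannot make separate groups overlap, so these repeats bear on the thresholds alone.

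Lead and partner mostly differed at both genomic ends. This was so at 69 of the 82 loci (84.1%), against 2859 of the 4002 (71.4%) for the corresponding pair of transcripts. The pair shared both ends at 2 loci, differed at the 5′ end alone at 6 and at the 3′ end alone at 5. Over the 4002 loci this was so at 6.55%, 11.1% and 10.9%. Where the 5′ ends differed, they lay a median of 103 bases apart, against 104 bases over the 4002 loci, and 3′ ends lay a median of 91.0 bases apart, against 81.0. Neither direction prevailed among the 82. The transcript with the larger share in smk8-ref began downstream of the other at 36 loci and upstream at 39, against 44.8% and 37.8% of the 4002. That transcript ended downstream at 35 and upstream at 39, against 37.1% and 45.3%. It spanned more of the genome at 37 and less at 43, against 41.9% and 51.4%. The table gives no exon positions, so which splicing event separates a pair is not known.

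Some pairs lay far apart. At Zm00001d014330 (chromosome 5), with 28 transcripts, and Zm00001d012674 (chromosome 8) lead and partner did not overlap in the genome at all, and at Zm00001d012674 they began 8709 bases apart. T011 of Zm00001d012674 held 50.1%, 50.1% and 63.1% in WT and 29.9%, 24.9% and 29.2% in smk8-ref, while T006 held 17.6%, 12.3% and 13.7% in WT and 34.0%, 32.3% and 29.8% in smk8-ref. The locus with the most transcripts, Zm00001d018976 (chromosome 7), had 34, of which T075 held 57.6%, 54.8% and 61.0% in WT and 48.7%, 34.2% and 1.14% in smk8-ref. Another locus of the table overlapped 4 of the 82, on the opposite strand in each case, and 182 of the 4002 (4.55%) were overlapped on either strand. Zm00001d024567, Zm00001d018976, Zm00001d022614 and Zm00001d014330 were the 4. No source used here says whether strand was used in counting, so reads of the overlapping genes may not be separated there.

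Members had a median of 6 transcripts in the table, against 4 over the 4002 loci, and a median of 4 with a mean share of at least 5%, against 2. Loci with only 2 transcripts made up 2 of the 82 but 911 of the 4002 (22.8%). The most abundant transcript held a median of 55.2% of a member in WT and 50.1% in smk8-ref, against 70.6% and 70.0% over the 4002 loci. Members were expressed at about the level of the rest, with a median locus mean of 14.5 FPKM against 15.5. A difference of 25 points cannot arise at a locus where 1 transcript holds nearly all FPKM in every library, so the rule itself favours loci with several transcripts of middling share.

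The locus means differed by less than 2-fold between genotypes, as the rule required. The median log2 ratio of locus means, smk8-ref over WT, was -0.09 for the 82 and also -0.09 for the 4002. A difference of less than 1.2-fold was found at 42 of the 82 (51.2%) and at 1915 of the 4002 (47.9%). The libraries of the genotypes did not overlap in the locus sum at 28 of the 82 loci, 11 higher and 17 lower in smk8-ref, against 1586 of the 4002 (39.6%), where 542 were higher (13.5%) and 1044 lower (26.1%). The rule removed 7 further loci whose shares passed but whose locus mean differed by 2-fold or more, from 89 that passed at any fold (2.22%). At the threshold, the 3 loci just inside were Zm00001d022185, Zm00001d019922 and Zm00001d032989, at 25.41, 25.13 and 25.04 points, and the 3 just outside were Zm00001d042421, Zm00001d052083 and Zm00001d017952, at 24.97, 24.93 and 24.92 points. In all, 194 of the 4002 loci had a transcript with a difference of at least 25 points, and 105 of them had none that was also free of overlap.

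The loci lay on all 10 chromosomes. Chromosome 7 held 14 of them among its 304 loci that could pass (4.61%), and chromosome 5 held 3 among 506 (0.593%). On the other chromosomes the percentage was between 1.54% and 2.72%. The chromosome 7 members were spread from Zm00001d018598 (413119 to 416228) to Zm00001d022622 (181391530 to 181395150), in no single block, and included Zm00001d022622, where T007 held 31.0%, 18.5% and 42.8% in WT and 66.0%, 68.2% and 70.2% in smk8-ref. Of neighbouring members, Zm00001d027324 and Zm00001d027326 on chromosome 1 were the closest, 4845 bases apart on opposite strands. No test of position was run.

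**Figure D5:**
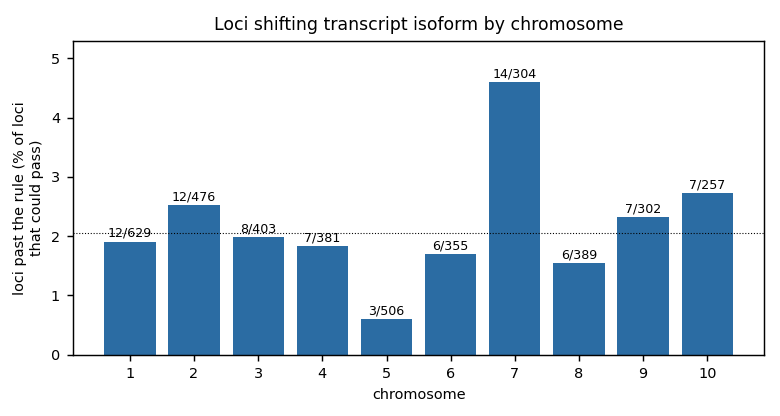
Percentage of loci that could pass which passed the rule (y axis), by chromosome (x axis), with the numbers above each bar and the value over all chromosomes, 2.05%, as a dotted line. Chromosome 7 stands highest at 4.61% and chromosome 5 lowest at 0.593%.

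Over the whole table, few share differences passed a test that pools the spread across transcripts. Of 11138 transcripts with a mean share between 5% and 95% at loci that could pass, 42 (0.377%) had an adjusted p below 0.05 in limma on the arcsine square root of the share, 25 higher (0.224%) and 17 lower (0.153%) in smk8-ref. They lay at 34 of 3244 loci (1.05%), of which 19 were among the 82. Because the rule and the test use the same contrast, this overlap is given as a count alone.

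In the authors' deposited table, 53 of the 82 lead transcripts are marked as up or down, 28 up and 25 down, all 53 in the direction of their share, and 29 are marked as unchanged. Over the 4002 loci, the authors' deposited table marks 714 of the transcripts of largest difference (17.8%). These marks come from the contrast that chose the loci, so nothing is read from the counts. In the authors' deposited table, 37 of the 82 loci have both a transcript marked up and one marked down, against 305 of the 4002 (7.62%). The q-values of the lead transcripts in the authors' deposited table run from 0.404 to 0.993, the lowest being also the lowest in the table.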

How the data were processed

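Per the submitters' processing notes, HISAT and StringTie were used; no source used here states their versions, their settings or the genome build, and contig names in the table begin with B73V4. Coordinates are as listed in that table. As values, the authors deposited FPKM per transcript and library, with their own linear fold change, log2 fold change, p-value and q-value per transcript; the model is not stated. All transcripts are marked protein-coding.

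Shares, locus sums and gaps were computed from the deposited FPKM with pandas 2.3.3 in Python 3.11.15. Low FPKM values are uncertain, and the table has no spliced lengths or counts, so no count test or counting interval was possible. Shares were tested with limma 3.58.1 in R 4.3.3 (arcsine square root, variance trend, two-sided, Benjamini-Hochberg adjustment, threshold 0.05), a procedure first tested on simulated data. Nothing says that replicates came from separate plants, so p-values reflect a spread between libraries that may be technical.

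The members and lists were chosen with earlier results of these data known. Loci described were the 12 of largest difference with at least 20 FPKM in both genotypes, the 10 most abundant, the 3 on either side of the threshold and the 2 with most transcripts; the 15 of widest gap, others on chromosome 7, loci of moderate gap, and loci where pairs or neighbours stand apart were added after values were seen. Alternatives were other thresholds, FPKM minima, averages, a pseudocount of 1, other share models, the replicate block and omission of each library. Loci on contigs and organelles were left out.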

Additional observations from a re-analysis of the deposited data

How the results depend on the processing

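The number of loci depended strongly on the thresholds. It was 130 at a difference of 20 points, 54 at 30 points and 23 at 40 points, 254 with a minimum of 1 FPKM, 40 with 10 FPKM and 469 with none, and 47 (38 of them among the 82) with 1 FPKM added to every transcript. It stayed within 1.5 times of 82 with no limit on the locus sum, a 1.5-fold limit and median shares. The number was 74 with median shares, and only 61 of these loci were among the 82. With 1 library left out it ran from 114 to 159, since fewer libraries overlap less often, and 64 to 73 of the 82 were in each set. Transcripts called by limma on the share numbered 42, and 22 with a minimum of 10 FPKM, 71 with no filter on the mean share, 117 with diffSplice on log2(FPKM + 1), 130 with diffSplice on log2(FPKM + 0.1), and 23 to 47 with 1 library left out, the lowest without smk8-ref replicate 2. With the replicate number as a block, limma called 0 transcripts, with 703 at an unadjusted p under 0.05, against 829 without the block. Same-numbered libraries did not deviate together (correlations 0.00066, -0.041 and -0.0079), and no library correlated best with its own number. Such correlations cannot exclude that same-numbered libraries were grown or prepared together, and the labels do not say. The counts with and without the block are therefore both given. For the 23 loci described by rule, the choice of groups that do not overlap fixes the sign of a share difference when a library is left out or medians are used, so these show no stability. With 1 FPKM added, 5 of the 23 differences moved by more than the spread between replicates. Shares weighted by transcript length were not run, because the table has no spliced length. Low expression limits all shares, and the cause of these changes was not tested.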

Other observations

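Among the 4002 loci, 53 have a gene name in the table, and none of them passed the rule. The largest difference of a transcript share among them had a median of 2.62 points and a maximum of 24.7. In 11 of the 53 the genotypes did not overlap in that share, against 22.8% of the 4002 loci, so named genes were near the rest. At PHI1, which encodes the glycolytic enzyme glucose-6-phosphate isomerase, T001 held 79.1%, 66.5% and 72.8% in WT and 96.0%, 95.5% and 84.7% in smk8-ref. The larger share of PHI1 T001 came with a much lower level of the gene, past the 2-fold limit, at 176 ± 16.6 FPKM (SD, n = 3) in WT and 51.9 ± 10.4 in smk8-ref, and T001 itself stood at 155, 112 and 120 FPKM in WT and 47.9, 40.7 and 53.5 in smk8-ref. At CDC2, a cyclin-dependent kinase gene, T004 held 60.2%, 54.7% and 59.7% in WT and 65.5%, 71.2% and 75.3% in smk8-ref. At SMH2, a gene for a histone-like protein with a Myb domain, T006 held 21.1%, 14.1% and 13.8% in WT and 30.9%, 29.6% and 31.4% in smk8-ref. At PARP1, a poly(ADP-ribose) polymerase gene, and PPDK2, a pyruvate phosphate dikinase gene, a single WT library stood apart. T003 of PARP1 held 89.8% in WT replicate 1 and between 16.0% and 22.2% in the other 5 libraries. T032 of PPDK2 held 66.6% in WT replicate 2 and at most 0.0228% elsewhere.

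The 7 loci that passed on share and not on level included some of the widest differences of all. T009 of Zm00001d018233 (chromosome 5) was listed at 0 in all WT libraries and held 83.0%, 84.6% and 79.9% in smk8-ref, at a locus of 10.8 ± 3.26 FPKM (SD, n = 3) in WT and 27.6 ± 4.62 in smk8-ref. T018 of Zm00001d046579 (chromosome 9) held 4.33%, 2.47% and 1.60% in WT and 58.2%, 58.0% and 51.7% in smk8-ref, at 11.2 ± 3.42 and 25.9 ± 2.58 FPKM. T003 of Zm00001d037553 (chromosome 6) held 89.8%, 96.6% and 97.6% in WT and 68.6%, 73.6% and 64.3% in smk8-ref, at 16.4 ± 4.90 and 7.34 ± 1.16 FPKM. At Zm00001d002715, Zm00001d038453, Zm00001d037939 and Zm00001d028586 the difference was between 25.5 and 50.8 points.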
